A study of Homo sapiens with 18 samples.

Results

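The enzymes that pass nitrogen between glutamine, glutamate and the common amino acids were examined as 8 genes, of 19849 in the expression table. The rule for membership was the reaction that a gene's product carries out. They are GLS2, a glutaminase, GLUL, glutamine synthetase, GLUD1 and GLUD2, the glutamate dehydrogenases, GOT1 and GOT2, the aspartate aminotransferases, and GPT and GPT2, the alanine aminotransferases. All 8 were found in the table.

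The cells were 3 human non-small cell lung cancer lines, A549, HCC827 and NCI-H358, each in a parental and a mesenchymal state. Mesenchymal cells had been cultured with TGFβ, a cytokine that drives epithelial-mesenchymal transition (EMT), at 2 ng/ml for 3 weeks as the labels give it, while the methods give ranges of weeks that include this, and they were moved to medium without TGFβ on the day before lysis. Every group was grown in RPMI1640 with 10% serum and 4 mM glutamine, and none of the descriptions read here gives parental cells a vehicle. Each line is a single genetic background. RNA of 3 samples of each of the 6 groups was hybridised to 18 Affymetrix U133 Plus 2.0 arrays. The samples of a group are described as separate biological samples made at the same time, so the p-values below measure the spread between those samples and not between repeats of the experiment.

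Glutaminases release ammonia from glutamine to give glutamate, and glutamine synthetase joins ammonia to glutamate in the opposite reaction. Glutamate can then lose its nitrogen as ammonia through glutamate dehydrogenase, or pass it to oxaloacetate or pyruvate through an aminotransferase, which makes aspartate or alanine. Either route gives α-ketoglutarate, an intermediate of the TCA cycle, and the aspartate aminotransferases are also parts of the malate-aspartate shuttle that carries reducing equivalents into mitochondria.

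The values are log2 expression levels after RMA, a method that corrects background, gives the probes of every array the same signal distribution and summarises the probes of a gene. The median of an array lay between 6.31 and 6.47. Over all genes, the SD of the log2 differences between 2 arrays of a group was 0.163 to 0.282, and between a parental and a mesenchymal array of a line it was 0.719 to 0.896. Of 6 mesenchymal markers (VIM, CDH2, ZEB1, FN1, SNAI2 and SPARC), 6 rose in each line. Of 7 epithelial markers (CDH1, EPCAM, KRT8, KRT18, KRT19, ESRP1 and GRHL2), 7 fell in HCC827 and in NCI-H358 and 5 in A549. The other 2, ESRP1 and GRHL2, were already low in parental A549 cells, at 3.53 ± 0.061 and 3.83 ± 0.21 (SD, n = 3). Among 4 markers of cells that a tumour line should lack, PTPRC stayed between 2.83 and 3.18 in every group mean and CDH5 between 3.97 and 4.29. CD14 ranged from 4.40 to 5.76 and was lower in mesenchymal than parental A549 cells, and PECAM1 ranged from 4.66 to 5.31 and was higher in mesenchymal HCC827 cells. The part of these markers in the results was not tested.

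Mesenchymal cells were compared with parental cells of the same line to ask which of these enzymes changed with EMT. A limma adjusted p below 0.05, adjusted over all genes, was taken as a call. In A549, 6 of the 8 members were called, 2 higher (GLUL and GLUD2) and 4 lower (GLUD1, GOT1, GOT2 and GPT2), where 43.4% of all genes were called, 16.6% higher and 26.8% lower. The GLUD2 call was lost under alternatives given below, and with an array left out the A549 count was 5 to 6. Among the HCC827 groups 6 were called, with GLUL higher and GLS2, GLUD1, GOT1, GOT2 and GPT2 lower, against 45.8% of all genes, 20.8% higher and 25% lower. For NCI-H358 there were 5 calls, all lower (GLS2, GLUL, GLUD1, GOT1 and GPT2), against 41.4% of all genes, 21.5% higher and 19.8% lower. For the members the median log2 fold changes were -0.27 (A549), -0.47 (HCC827) and -0.53 (NCI-H358), beside -0.021, 0.0051 and 0.015 over all genes. Centring each array on its own median left the direction of every one of these calls as it was, but moved the higher share of all calls from 38.3% to 48.9% in A549 and from 45.4% to 53.7% in HCC827, where the larger share thus turned from lower to higher.

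GLUD1, GOT1 and GPT2 were lower in all 3 lines. This was so for 3 of 8 members and for 6.14% of all genes. The number of members higher in all 3 lines by limma was 0 (4.31% of all genes), also at an unadjusted p below 0.05. GLUL was called in all 3 lines with mixed directions, as were 7.39% of all genes, and GPT was called in none. Most of the changes were small. With a change of more than 2-fold also required, there was 1 call for A549 (GLUL; 8.02% of all genes), 1 for HCC827 (GPT2; 11.5%) and there were 2 for NCI-H358 (GLUL and GPT2; 9.38%). A rule of adjusted p below 1e-05 and more than 5-fold was met by 0 members in any line by limma, and by 1.9%, 2.95% and 2.17% of all genes, while 6, 6 and 5 members had an unadjusted p below 0.05.

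**Figure D1:**
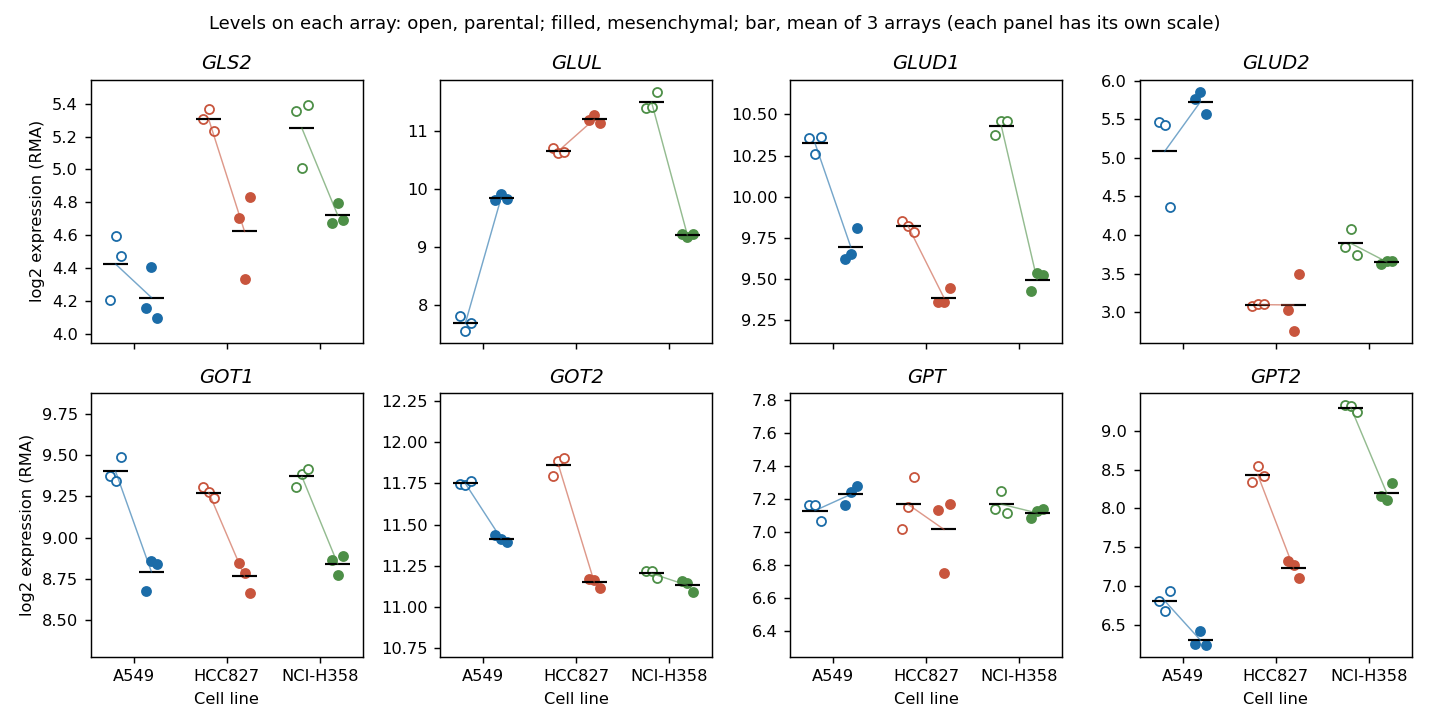
Log2 expression (RMA) of the 8 enzyme genes on each of the 18 arrays, 1 panel per gene with its own vertical scale. Open circles are parental and filled circles mesenchymal arrays, black bars are means of 3 arrays, and lines join the means of a cell line; GLUL rose from 7.69 to 9.84 in A549 and fell from 11.49 to 9.20 in NCI-H358, whereas GOT1 fell by a like amount in each line.

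GLS2 encodes the glutaminase first known from liver, and its probe set was dim here, below the median of all genes. Its group means ran from 4.22 in mesenchymal A549 to 5.30 in parental HCC827 cells, where 18.7% and 34.4% of all genes read lower. These levels are close to those given above for CD14 and PECAM1, markers that a tumour line should lack. How far the GLS2 readings lie above background was not tested. In HCC827 the parental arrays read 5.31, 5.37 and 5.24 and the mesenchymal arrays 4.70, 4.33 and 4.83, so the groups did not overlap. GLS2 fell there by 0.68 on the log2 scale (SE 0.13, limma adjusted p = 0.000392), a 1.60-fold decrease. In NCI-H358 the parental arrays read 5.35, 5.01 and 5.39 and the mesenchymal arrays 4.68, 4.80 and 4.69, again without overlap. The decrease was 1.44-fold (log2 change -0.53, SE 0.13, limma adjusted p = 0.00381). A549 started lower, at 4.20, 4.60 and 4.48, and its mesenchymal arrays, at 4.16, 4.41 and 4.10, overlapped the parental ones. Its log2 change of -0.20 (95% interval -0.49 to 0.080) did not pass the test (limma adjusted p = 0.249). The 3 changes were not shown to differ from each other: the difference between HCC827 and A549 was -0.48 (limma adjusted p = 0.0523).

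GLUL, which makes glutamine from glutamate and ammonia, had the largest change of the 8 members in A549 and in NCI-H358, in opposite directions. Parental A549 arrays read 7.81, 7.55 and 7.70 and mesenchymal arrays 9.81, 9.91 and 9.82. The groups were 2.00 apart at their nearest arrays, and the level was 4.46-fold higher in mesenchymal cells (log2 change 2.16, SE 0.079, limma adjusted p = 7.20e-13). Parental NCI-H358 arrays read 11.40, 11.40 and 11.67 and mesenchymal arrays 9.23, 9.17 and 9.22. Here the groups were 2.17 apart, and the level was 4.86-fold lower in mesenchymal cells (log2 change -2.28, SE 0.079, limma adjusted p = 4.29e-13). HCC827 moved the way A549 did, but less. Its parental arrays read 10.70, 10.62 and 10.63 and its mesenchymal arrays 11.19, 11.26 and 11.13, a 1.46-fold increase (log2 change 0.55, SE 0.079, limma adjusted p = 1.91e-05).

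The change of GLUL differed between every pair of lines. On the log2 scale the change in HCC827 minus that in A549 was -1.61 (limma adjusted p = 4.60e-09), and the difference of NCI-H358 from A549 was -4.44 (limma adjusted p = 2.36e-14). Between NCI-H358 and HCC827 it was -2.83 (limma adjusted p = 8.58e-12). Of the 8 members, 3, 5 and 3 had a change that differed in these respective comparisons, against 42.2%, 42.8% and 37.9% of all genes. GLUL and GOT2 were the 2 members whose change differed in all 3 comparisons, as it did for 14.3% of all genes.

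By level, GLUL ran from parental NCI-H358 (11.49 ± 0.16) through mesenchymal HCC827 (11.19 ± 0.063), parental HCC827 (10.65 ± 0.044), mesenchymal A549 (9.84 ± 0.055) and mesenchymal NCI-H358 (9.20 ± 0.032) to parental A549 (7.69 ± 0.13; SD, n = 3 each). Each neighbour in this order differed from the next, the closest pair being parental NCI-H358 and mesenchymal HCC827 with a difference of 0.29 (limma adjusted p = 0.00435). For any single pair of neighbours, 45.8% to 62.7% of all genes differed. Parental A549 stood 3.80 below parental NCI-H358, a 13.9-fold difference. The line with the lowest parental level had the largest rise and the line with the highest had the fall. A change is measured from the parental level and so is tied to it, and this order was not tested. After treatment the lines spanned 1.99 (log2), and NCI-H358 had become the lowest of the 3.

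Promoter windows of 250 bases before the annotated gene start were read for the members from RefSeq (GRCh38.p14). An entry was found for 6 of the 8 members, in 7 windows, since GLUL has 2. They were searched on both strands for CACCTG, which reads CAGGTG on the other strand and is the E-box variant bound by the EMT repressors of the ZEB and SNAI families, and for CAGAC, which reads GTCTG on the other strand and is the SMAD box bound by effectors of TGFβ. Neither was found in any of the 7 windows, where 17.5% and 38.0% of 35097 windows of this length hold them. CCAAT, which reads ATTGG on the other strand and is the element bound by NF-Y, was added after the sequences had been read. It was found in 2 of the 7 windows and in 32.0% of all, with 2 matches in the upstream GLUL window and 5 in that of GOT1. These are shown because GLUL was the member whose direction differed most between lines and GOT1 the one that changed most alike. The GLUL window is chr1:182391791-182392040 and the GOT1 window chr10:99430625-99430874, both on the minus strand, written 5′ to 3′ with the CCAAT matches of either strand in capitals.
GLUL: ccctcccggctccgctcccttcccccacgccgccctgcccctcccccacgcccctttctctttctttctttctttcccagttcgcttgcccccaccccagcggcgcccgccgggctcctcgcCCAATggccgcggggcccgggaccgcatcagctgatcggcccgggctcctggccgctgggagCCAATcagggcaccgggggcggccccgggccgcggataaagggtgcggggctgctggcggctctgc
GOT1: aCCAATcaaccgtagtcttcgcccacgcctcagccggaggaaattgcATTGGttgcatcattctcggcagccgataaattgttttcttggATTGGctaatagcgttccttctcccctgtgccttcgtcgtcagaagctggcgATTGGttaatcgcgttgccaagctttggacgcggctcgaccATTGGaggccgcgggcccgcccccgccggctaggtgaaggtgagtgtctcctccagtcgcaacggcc
The GLUL matches begin 128 and 66 bases before the gene start, and those of GOT1 249, 203, 160, 108 and 67 bases before it. A match of letters is a description, and binding was not measured. How many of all windows hold as many CCAAT matches as these was not counted, and a link to the changes was not tested.

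GLUD1 encodes the mitochondrial glutamate dehydrogenase found in most tissues, which releases ammonia and α-ketoglutarate from glutamate. It fell in every line. Parental A549 arrays read 10.36, 10.26 and 10.36 and mesenchymal arrays 9.62, 9.65 and 9.81, a 1.55-fold decrease (log2 change -0.63, SE 0.064, limma adjusted p = 3.59e-07). HCC827 went from 9.85, 9.82 and 9.79 to 9.36, 9.36 and 9.44, a 1.35-fold decrease (log2 change -0.43, SE 0.064, limma adjusted p = 2.08e-05). NCI-H358 went from 10.37, 10.46 and 10.46 to 9.43, 9.54 and 9.52, a 1.91-fold decrease (log2 change -0.93, SE 0.064, limma adjusted p = 2.16e-09). The parental and mesenchymal groups were at least 0.34 apart in each line. The fall in NCI-H358 was larger than that in A549 (difference -0.30, limma adjusted p = 0.0114) and that in HCC827 (difference -0.50, limma adjusted p = 0.000261), while HCC827 and A549 were not shown to differ (difference 0.20, limma adjusted p = 0.0918).

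GLUD2 is an intronless copy of GLUD1 on the X chromosome, with its own enzyme product. The 2 transcripts are nearly identical in sequence, and the GLUD1 probe set is of a type that can bind related transcripts, so how far each probe set reads only its own gene is uncertain. The GLUD2 probe set was dim, below the median of all genes, and differed more between lines than between states. In HCC827, 6.05% (parental) and 5.87% (mesenchymal) of all genes read lower, and in NCI-H358 14.5% and 11.8%. How far these readings lie above background was not tested. A549 parental arrays read 5.46, 5.43 and 4.36 and mesenchymal arrays 5.76, 5.86 and 5.57. GLUD2 passed the test there (log2 change 0.64, SE 0.22, limma adjusted p = 0.0282), but the third parental array read far below the other parental arrays, and without it the change was 0.28 (limma adjusted p = 0.169). Leaving out mesenchymal array 1 or 2 of A549 also ended the call, at 0.63 (limma adjusted p = 0.0694) and 0.58 (limma adjusted p = 0.0868). HCC827 read 3.08, 3.11 and 3.11 in parental and 3.03, 2.76 and 3.49 in mesenchymal cells, with overlap. Its change of -0.0046 turned to 0.060 when arrays were centred on their medians, and neither passed the test (limma adjusted p = 0.990 and 0.841). NCI-H358 read 3.84, 4.08 and 3.75 and then 3.63, 3.67 and 3.66, a change of -0.24 that did not pass (95% interval -0.72 to 0.24, limma adjusted p = 0.458), although the groups were 0.081 apart.

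Between the lines, parental A549 stood 1.98 (log2) above parental HCC827 for GLUD2 (limma adjusted p = 6.28e-07) and 1.19 above parental NCI-H358 (limma adjusted p = 0.000179). For GLUD1 the order was another: NCI-H358 and A549 were not shown to differ (difference 0.11, limma adjusted p = 0.173), and HCC827 lay 0.51 below A549 (limma adjusted p = 2.32e-06). The promoter windows of the pair, chr10:87094844-87095093 on the minus strand for GLUD1 and chrX:121047360-121047609 on the plus strand for GLUD2, are shown because part of the copied sequence lies in them. Capitals mark runs of at least 12 identical bases within a local alignment of both windows, and matches outside that alignment are left in small letters.
GLUD1: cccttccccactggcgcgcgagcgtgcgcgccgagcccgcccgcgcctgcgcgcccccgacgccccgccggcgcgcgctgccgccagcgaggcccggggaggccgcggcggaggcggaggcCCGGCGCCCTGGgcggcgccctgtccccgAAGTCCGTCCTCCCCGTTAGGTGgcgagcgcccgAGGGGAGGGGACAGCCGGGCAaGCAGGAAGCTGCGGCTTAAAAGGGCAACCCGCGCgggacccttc
GLUD2: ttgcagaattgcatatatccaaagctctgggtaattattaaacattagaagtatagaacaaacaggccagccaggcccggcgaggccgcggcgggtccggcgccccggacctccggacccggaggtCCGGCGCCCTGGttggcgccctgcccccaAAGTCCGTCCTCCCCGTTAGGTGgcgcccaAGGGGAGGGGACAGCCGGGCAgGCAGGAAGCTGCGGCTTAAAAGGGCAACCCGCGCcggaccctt
The local alignment began 142 bases before the GLUD1 start and 137 bases before the GLUD2 start. It paired 137 bases, of which 127 (92.7%) were identical, with 4 further bases in gaps and a longest identical run of 34 bases.

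GOT1, the cytosolic aspartate aminotransferase, fell in all 3 lines by amounts that were not shown to differ. A549 arrays read 9.37, 9.34 and 9.49 in parental and 8.67, 8.86 and 8.84 in mesenchymal cells. HCC827 read 9.30, 9.27 and 9.24 and then 8.85, 8.78 and 8.66. NCI-H358 read 9.31, 9.39 and 9.42 and then 8.86, 8.77 and 8.89. The groups were at least 0.39 apart within each line, and every parental array of any line lay above every mesenchymal array of any line. The decrease was 1.53-fold in A549 (log2 change -0.61, SE 0.070, limma adjusted p = 1.65e-06), 1.42-fold in HCC827 (log2 change -0.51, limma adjusted p = 9.93e-06) and 1.44-fold in NCI-H358 (log2 change -0.53, limma adjusted p = 7.52e-06). The largest difference between lines was 0.10, with a 95% interval of -0.11 to 0.31 (HCC827 against A549, limma adjusted p = 0.461). Nor were the levels shown to differ between lines of the same state: the parental means spanned 0.13 and the mesenchymal means 0.076. With arrays centred on their medians, however, parental HCC827 lay below parental A549 (-0.18, limma adjusted p = 0.0469).

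GOT2 is the mitochondrial aspartate aminotransferase. A549 arrays read 11.75, 11.74 and 11.76 in parental and 11.44, 11.41 and 11.40 in mesenchymal cells, a 1.26-fold decrease (log2 change -0.33, SE 0.052, limma adjusted p = 4.75e-05). HCC827 read 11.80, 11.89 and 11.90 and then 11.17, 11.17 and 11.12, a 1.64-fold decrease (log2 change -0.71, limma adjusted p = 4.21e-09). NCI-H358 read 11.22, 11.22 and 11.18 and then 11.16, 11.15 and 11.09, a change of -0.072 that did not pass the test (95% interval -0.18 to 0.038, limma adjusted p = 0.312). Unlike GOT1, GOT2 changed by a different amount in each line. The decrease in HCC827 exceeded that in A549 (difference -0.38, limma adjusted p = 0.000467), and NCI-H358 differed from A549 by 0.26 (limma adjusted p = 0.00779) and from HCC827 by 0.64 (limma adjusted p = 2.49e-06). Parental NCI-H358 cells were already 0.55 below parental A549 cells (limma adjusted p = 6.35e-08), and among mesenchymal cells NCI-H358 and HCC827 were not shown to differ (difference -0.020, limma adjusted p = 0.790).

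GPT, the cytosolic alanine aminotransferase, was the member called in no line. Its probe set is also of the type that can bind related transcripts. A549 read 7.16, 7.16 and 7.06 in parental and 7.16, 7.24 and 7.28 in mesenchymal cells, HCC827 read 7.01, 7.15 and 7.33 and then 7.13, 6.75 and 7.17, and NCI-H358 read 7.14, 7.25 and 7.12 and then 7.08, 7.12 and 7.14. The groups overlapped in each line. The log2 changes were 0.098 (95% interval -0.11 to 0.31), -0.15 (-0.36 to 0.058) and -0.054 (-0.26 to 0.16), with limma adjusted p = 0.469, 0.242 and 0.735. No neighbours among the 6 group means, which ran from 7.01 to 7.23, were shown to differ. The ends of this range, mesenchymal HCC827 and mesenchymal A549, differed by -0.21 (limma adjusted p = 0.0787), and this passed with arrays centred on their medians (-0.27, limma adjusted p = 0.0256) and under other alternatives.

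GPT2, the mitochondrial alanine aminotransferase, fell in all 3 lines. A549 arrays read 6.80, 6.68 and 6.94 in parental and 6.24, 6.41 and 6.24 in mesenchymal cells, a 1.42-fold decrease (log2 change -0.51, SE 0.087, limma adjusted p = 0.000127). HCC827 read 8.33, 8.54 and 8.42 and then 7.32, 7.27 and 7.10, a 2.30-fold decrease (log2 change -1.20, limma adjusted p = 3.69e-09). NCI-H358 read 9.33, 9.32 and 9.24 and then 8.16, 8.11 and 8.32, a 2.14-fold decrease (log2 change -1.10, limma adjusted p = 1.46e-08). The groups were 0.27, 1.01 and 0.92 apart. Both HCC827 (difference -0.69, limma adjusted p = 0.000190) and NCI-H358 (difference -0.59, limma adjusted p = 0.000828) fell further than A549, and they were not shown to differ from each other (difference 0.10, limma adjusted p = 0.578). Every neighbour in the order of the 6 GPT2 levels differed from the next, from parental NCI-H358 (9.30 ± 0.049) to mesenchymal A549 (6.30 ± 0.099; SD, n = 3 each), and the lines kept the order NCI-H358, HCC827, A549 in both states. In any 1 of these neighbouring pairs, 43.4% to 57.4% of all genes differed.

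**Figure D2:**
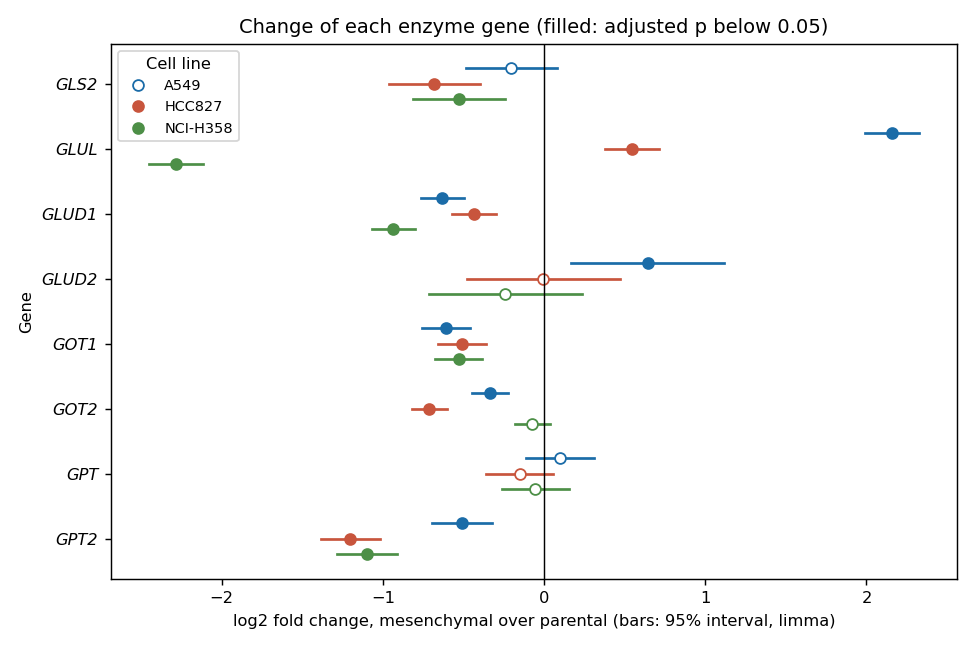
Log2 fold change of each enzyme gene, mesenchymal over parental, in the 3 cell lines, with bars for the 95% interval from limma and filled points for adjusted p below 0.05. GLUD1, GOT1 and GPT2 lie to the left of 0 in every line, GLUL lies at 2.16 in A549 and at -2.28 in NCI-H358, and the intervals of GPT include 0 in each line.

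The ranges of the arrays were also read without a model. Parental and mesenchymal arrays did not overlap for 6 members of A549, 6 of HCC827 and 7 of NCI-H358, against 52.4%, 51.2% and 51.6% of all genes. In an exact permutation test over arrays, two-sided, each of these gave p = 0.1, the smallest that 3 against 3 arrays allow. That test could therefore not reach the 0.05 threshold for any gene. For NCI-H358 the 7 members include GOT2 and GLUD2, whose groups were 0.021 and 0.081 apart and which limma did not call. All of these are levels of RNA from whole cultures, in which fewer expressing cells and less RNA per cell cannot be told apart.

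Between lines in the same state, 5 of 8 members differed between parental HCC827 and A549, 5 between parental NCI-H358 and A549, and 5 between parental NCI-H358 and HCC827, against 57.1%, 57.9% and 52.6% of all genes. Among mesenchymal cells the counts were 6, 6 and 3, against 56.6%, 58.8% and 52.6%. Of the 6 mesenchymal differences between HCC827 and A549, that of GLS2 (0.40, limma adjusted p = 0.0167) did not hold when either mesenchymal A549 array 1 or 3, or mesenchymal HCC827 array 1 or 3, was left out, and the lowest value among these was 0.30 (limma adjusted p = 0.0925). That of GLUD1 for NCI-H358 against A549 (-0.20, limma adjusted p = 0.0131) did not hold without mesenchymal A549 array 3 (-0.14, limma adjusted p = 0.0859) or mesenchymal NCI-H358 array 1 (-0.16, limma adjusted p = 0.0656). That of GLUD2 between NCI-H358 and HCC827 (0.56, limma adjusted p = 0.0465) held without mesenchymal HCC827 array 3 and with none of the other mesenchymal arrays of these lines left out, and was lowest without mesenchymal HCC827 array 2 (0.39, limma adjusted p = 0.207). It did not hold with quantile normalisation applied again (0.52, limma adjusted p = 0.0538), and the GLUD2 readings of both lines were dim. The span of the 3 parental means and of the 3 mesenchymal means, on the log2 scale, was 0.88 and 0.50 for GLS2, 3.80 and 1.99 for GLUL, 0.61 and 0.31 for GLUD1, and 0.66 and 0.28 for GOT2. It was 2.49 and 1.90 for GPT2, 1.98 and 2.63 for GLUD2, and 0.039 and 0.21 for GPT. With GOT1, the span was thus smaller among mesenchymal cells for 6 of 8 members (75%), and for 50.0% of all genes, which is a description with no test.

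The neighbouring reactions were read from 5 lists of genes. A rise or fall here is a limma call at adjusted p below 0.05. Of all genes, 43.4% were called for A549 (16.6% higher, 26.8% lower) and 45.8% for HCC827 (20.8% higher, 25% lower). For NCI-H358 the share was 41.4% (21.5% higher, 19.8% lower). The all-gene median log2 changes, by line, were -0.021, 0.0051 and 0.015. Among 9 amide-group enzymes, which take nitrogen from glutamine for nucleotides, asparagine and other products, 2 rose and 7 fell in A549, 5 rose and 3 fell in HCC827, and 3 rose and 4 fell in NCI-H358. Their median log2 changes were -0.50, 0.51 and -0.022. The member of this list with the largest change in A549 and in HCC827 was CPS1, carbamoyl phosphate synthetase of the urea cycle, although it uses free ammonia and not glutamine. It went from 6.67 ± 0.21 to 3.92 ± 0.17 (SD, n = 3) in A549, a log2 change of -2.75 (limma adjusted p = 4.14e-10). In HCC827 it went from 3.30 ± 0.19 to 5.97 ± 0.34, a log2 change of 2.67 (limma adjusted p = 4.07e-10). The NCI-H358 change was -0.43 (limma adjusted p = 0.0418). CTPS2, a CTP synthase, fell by 1.01 in NCI-H358 (limma adjusted p = 1.90e-09), by 0.74 in HCC827 (limma adjusted p = 8.00e-08) and by 0.48 in A549 (limma adjusted p = 1.79e-05).

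Of 11 other aminotransferases, 4 rose and 2 fell in A549, 4 rose and 4 fell in HCC827, and 3 rose and 2 fell in NCI-H358. Their median log2 changes were -0.016, -0.0084 and 0.16. ABAT, which breaks down the neurotransmitter GABA, rose from 3.30 ± 0.31 to 7.46 ± 0.27 (SD, n = 3) in A549, by 4.16 (log2; limma adjusted p = 1.33e-12). It also rose by 1.47 in HCC827 (limma adjusted p = 6.75e-07) and by 1.32 in NCI-H358 (limma adjusted p = 2.87e-06). The rise in NCI-H358 was between dim readings, from 2.92 ± 0.12 to 4.24 ± 0.14 (SD, n = 3), where 3.57% and 18.6% of all genes read lower. BCAT1, the cytosolic aminotransferase of leucine, isoleucine and valine, rose by 1.29 in A549 (limma adjusted p = 2.04e-07), 0.68 in HCC827 (limma adjusted p = 0.000192) and 1.62 in NCI-H358 (limma adjusted p = 1.02e-08). Both therefore rose in each of the lines in which GOT1 and GPT2 fell.

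The 5 partners of GOT1 and GOT2 in the malate-aspartate shuttle gave 0 rises and 4 falls in A549, 1 rise and 3 falls in HCC827, and 1 rise and 2 falls in NCI-H358, with median log2 changes of -0.45, -0.26 and 0.056. SLC25A11, which exchanges malate for α-ketoglutarate across the inner mitochondrial membrane, fell by 0.68 in A549 (limma adjusted p = 1.32e-07) and by 0.79 in NCI-H358 (limma adjusted p = 1.77e-08), and its change in HCC827 was -0.13 (limma adjusted p = 0.110). SLC25A13, an aspartate-glutamate carrier, fell by 0.50 in A549 (limma adjusted p = 0.000120) and by 0.43 in HCC827 (limma adjusted p = 0.000357), with a change of 0.15 in NCI-H358 (limma adjusted p = 0.167).

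**Figure D3:**
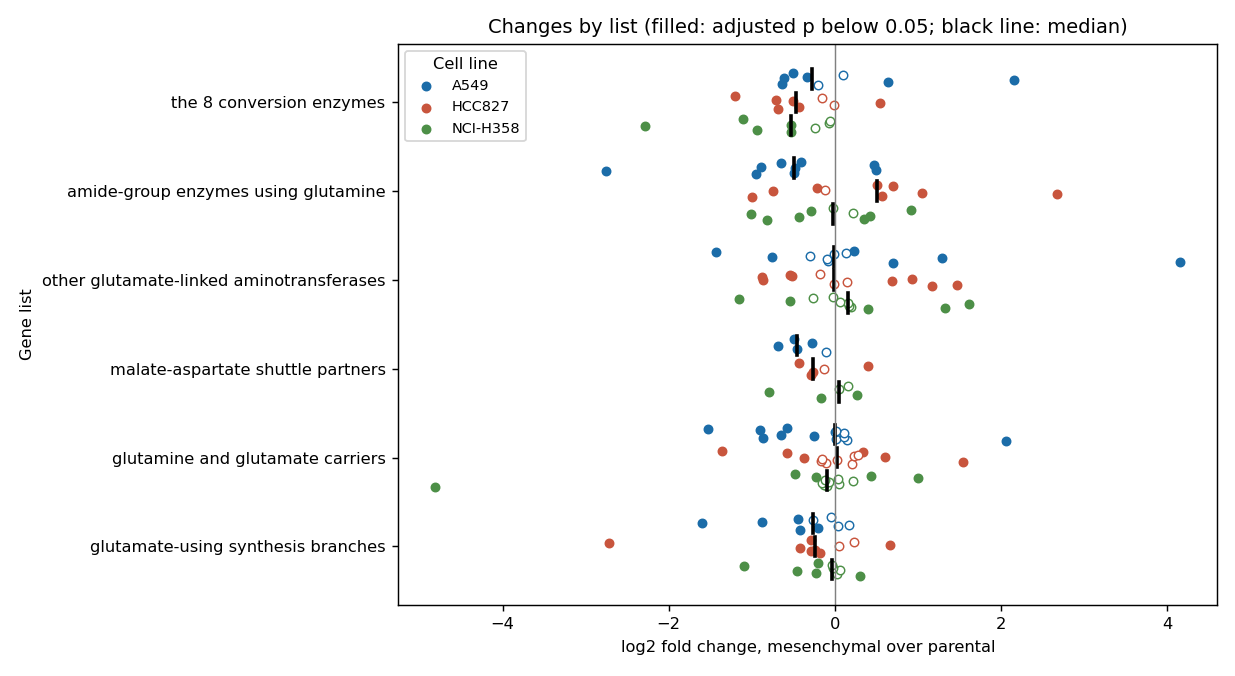
Log2 fold change, mesenchymal over parental, of each gene of the 8 conversion enzymes and of 5 lists of neighbouring reactions, by cell line. Filled points passed adjusted p below 0.05 and black lines are medians of a list in a line; the medians of the 8 enzymes are -0.27 (A549), -0.47 (HCC827) and -0.53 (NCI-H358), and single genes such as ABAT in A549 (4.16) and SLC1A1 in NCI-H358 (-4.81) lie far from their list's median.

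Carriers of glutamine and glutamate were 13 genes, of which 1 rose and 6 fell in A549, 3 rose and 3 fell in HCC827, and 2 rose and 3 fell in NCI-H358. Their median log2 changes were 0.00019, 0.022 and -0.093. SLC1A1, a glutamate carrier of the plasma membrane, rose in A549 from 5.78, 5.52 and 5.34 to 7.42, 7.71 and 7.68, a log2 change of 2.06 (limma adjusted p = 6.02e-10). The NCI-H358 arrays fell from 9.14, 9.21 and 9.32 to 4.13, 4.65 and 4.47, a log2 change of -4.81 (limma adjusted p = 1.39e-14), and in HCC827 its change was 0.21 (limma adjusted p = 0.201). In A549 and NCI-H358 it thus moved in the directions of GLUL. SLC1A3, another glutamate carrier, rose by 1.55 in HCC827 (limma adjusted p = 3.87e-06) and did not pass the test in A549 (0.016, limma adjusted p = 0.961) or NCI-H358 (-0.13, limma adjusted p = 0.676).

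The 9 genes that lead from glutamate to glutathione, proline, GABA and polyglutamated folates, or back from proline, gave 0 rises and 5 falls in A549, 1 rise and 6 falls in HCC827, and 1 rise and 4 falls in NCI-H358, with median log2 changes of -0.26, -0.24 and -0.037. GCLC, the catalytic subunit of the first enzyme of glutathione synthesis, fell by 1.60 in A549 (limma adjusted p = 1.52e-12) and changed by 0.053 and 0.063 in HCC827 and NCI-H358 (limma adjusted p = 0.542 and 0.486). PRODH, which starts the breakdown of proline, fell by 2.71 in HCC827 (limma adjusted p = 2.68e-09) and by 1.10 in NCI-H358 (limma adjusted p = 0.000154), and its change in A549 was -0.26 (limma adjusted p = 0.310). These lists were counted beside the members and no test of a list was made. Whether the counts of any list differed from the shares over all genes was therefore not tested.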

How the data were processed

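RNA of 3 samples of each of 6 groups was measured on Affymetrix U133 Plus 2.0 arrays. The table that the authors deposited holds log2 values after RMA, for 19849 genes read by 1 probe set each. How that probe set was selected, and the annotation version, are not given in the sources used here. Each column bears a sample title, so groups came from the labels and 0 columns were left unmapped.

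The log2 values as deposited were fitted by lmFit and eBayes of limma 3.58.1, under R 4.3.3, as 1 model of 18 arrays and 6 groups with no covariate and no filter, and p-values were adjusted by Benjamini-Hochberg over all genes. Changes within lines, differences of those changes and differences between lines were contrasts of this fit. The script was tested on simulated data. The members, gene lists, markers and tests were chosen with earlier results of these data known.

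Named genes were all 8 members, the markers, and from each list the gene with the largest called change per line and any gene called above 2-fold in the same direction in at least 2 lines. An item that this rule would name is not reported here, and the list that held it was counted without it. For members whose 6 group means span over 1 log2 unit, the 3 genes with the highest Pearson correlation over the arrays were named. Alternatives were a separate fit per line, the methods' t-test, an intensity trend, robust eBayes, genes above the median level only, 2 other scalings, array weights, each array left out in turn, and stricter call rules. Arrays have no sequencing depth, and the 3 arrays per group limit the precision. Promoter windows came from RefSeq (GRCh38.p14) and were aligned with Biopython 1.88. Other probe sets of these genes, and the metabolite measurements of the study, were not used here.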

Additional observations from a re-analysis of the deposited data

Results flagged for a closer look

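In all, 11 differences between lines in the size or direction of a change were past the threshold of the limma interaction contrast, each a log2 difference between 2 changes of 3 arrays against 3. By pair, they came from 3 (HCC827 against A549), 5 (NCI-H358 against A549) and 3 (NCI-H358 against HCC827) of the 8 members. Over all genes the shares past this threshold were 42.2%, 42.8% and 37.9%. The change of GLUL differed by -1.61 between HCC827 and A549 (adjusted p = 4.60e-09), by -4.44 for NCI-H358 against A549 (adjusted p = 2.36e-14) and by -2.83 between NCI-H358 and HCC827 (adjusted p = 8.58e-12), where limma gave the adjusted values. GLUL was the member with called changes in opposite directions.

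For GOT2, limma gave differences of -0.38 between HCC827 and A549 (adjusted p = 0.000467), 0.26 for NCI-H358 against A549 (adjusted p = 0.00779) and 0.64 between NCI-H358 and HCC827 (adjusted p = 2.49e-06). GPT2 fell further than in A549 by -0.69 in HCC827 (limma adjusted p = 0.000190) and by -0.59 in NCI-H358 (limma adjusted p = 0.000828). GLUD1 fell further in NCI-H358, by -0.30 against A549 (limma adjusted p = 0.0114) and by -0.50 against HCC827 (limma adjusted p = 0.000261). For GLUD2 the difference of NCI-H358 from A549 was -0.88 (limma adjusted p = 0.0332), and it did not hold without parental A549 array 3, at -0.52 (limma adjusted p = 0.0568), nor in 6 other fits that left out 1 array each, namely mesenchymal A549 array 1 or 2, parental NCI-H358 array 2, or mesenchymal NCI-H358 array 1, 2 or 3 (limma adjusted p from 0.0529 to 0.0775).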

How the results depend on the processing

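Every called change of GLUL, GLUD1, GOT1, GPT2, GOT2 and GLS2 within a line kept its direction in each alternative that tested the gene. Each also kept its call, except under the stricter call rules, whose counts close this paragraph. GLS2 and GLUD2 were not tested among genes above the median level. The call of GLUD2 in A549 did not hold in a separate fit (0.64, limma adjusted p = 0.103), by the methods' t-test (0.64, adjusted p = 0.268) or with array weights (0.46, limma adjusted p = 0.0589), and ranged from 0.28 to 0.83 with an array left out. In HCC827 its change was 0.060 with arrays centred on their median and -0.20 to 0.16 with an array left out. The difference of the GLUD1 change between HCC827 and A549 (0.20) passed with an intensity trend (limma adjusted p = 0.0482) and among genes above the median level (limma adjusted p = 0.0407), and that of GLS2 with array weights (-0.48, limma adjusted p = 0.0431). With an array left out these ranged from 0.16 to 0.25 and from -0.58 to -0.33, and those of GLUD2 from -0.85 to -0.29 for HCC827 and from -1.07 to -0.52 for NCI-H358, both against A549. Of these fits, 3 passed for GLS2, without parental A549 array 2, mesenchymal A549 array 3 or mesenchymal HCC827 array 3 (limma adjusted p from 0.0216 to 0.0435), 1 for GLUD1, without mesenchymal A549 array 3 (limma adjusted p = 0.0325), and 2 for GLUD2 in HCC827 against A549, without mesenchymal HCC827 array 3 or parental A549 array 1 (limma adjusted p = 0.0403 and 0.0456). The cause was not tested. Between NCI-H358 and HCC827 the change differed by -0.073 to 0.018 for GOT1 and by -0.036 to 0.17 for GPT. The counts of called members in A549, HCC827 and NCI-H358 were 1, 1 and 2 with more than 2-fold also required, and 0, 0 and 0 at 1e-05 and 5-fold.

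Some differences between lines passed only under an alternative. For GPT between mesenchymal HCC827 and A549, these were centring (-0.27, limma adjusted p = 0.0256), quantile normalisation applied again (-0.30, limma adjusted p = 0.0157), array weights (-0.27, limma adjusted p = 0.0206), genes above the median level (-0.21, limma adjusted p = 0.0495) and leaving out mesenchymal HCC827 array 3 or 1 (limma adjusted p = 0.0294 and 0.0479). For GOT2 between parental HCC827 and A549 they were an intensity trend (0.11, limma adjusted p = 0.0145), quantile normalisation (0.13, limma adjusted p = 0.0298), array weights (0.14, limma adjusted p = 0.0103), genes above the median level (0.11, limma adjusted p = 0.0253) and leaving out parental HCC827 array 1 (0.15, limma adjusted p = 0.0265). GOT1 between parental HCC827 and A549 passed with centring (-0.18, limma adjusted p = 0.0469).

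Other small differences between lines changed sign, and none of these had passed the test. The GPT difference between parental HCC827 and A549 was -0.014 with centring, -0.035 with quantile normalisation applied again and -0.047 to 0.11 with an array left out. Between parental NCI-H358 and A549 it was -0.0075 with centring and -0.00097 to 0.064 with an array left out. Between parental NCI-H358 and HCC827 it was -0.0078 with array weights and -0.074 to 0.086 with an array left out, and between the mesenchymal cells of these lines -0.034 to 0.18. The GOT1 difference between mesenchymal NCI-H358 and A549 was -0.026 with centring and -0.010 to 0.084 with an array left out. It ranged from -0.086 to 0.024 between mesenchymal HCC827 and A549 and from -0.059 to 0.012 between parental NCI-H358 and A549. For GLS2 the ranges between NCI-H358 and HCC827 were -0.12 to 0.069 in parental and -0.046 to 0.20 in mesenchymal cells, and for GOT2 -0.037 to 0.00064 in mesenchymal cells. Centring moved the median change of all genes by 0.068, 0.065 and 0.039 in A549, HCC827 and NCI-H358.

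No paired analysis was possible, since the labels do not say what the numbers in the sample titles name and no 2 groups share one. Each gene was read by 1 probe set, GLS2 and GLUD2 by dim ones, so their log2 changes can understate changes in RNA.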

Other observations

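The genes whose levels over the 18 arrays were most like those of a member are given by Pearson's r, with no test, since the arrays share 3 lines and 2 states and any gene that separates these groups in the same way scores high. For GLUL they were EMB (0.95), PMAIP1 (0.94) and TMCC3 (0.94). For GLUD1 they were TMCO3 (0.98), UCP2 (0.96) and NETO2 (0.96), and for GPT2 NUDT21 (0.98), MAPK13 (0.98) and ADAR (0.98). GLS2 was closest to SAV1 (0.94), TTC22 (0.94) and C11orf71 (0.93), and GLUD2 to MAP1LC3A (0.96), LOC100289026 (0.96) and RARB (0.96). Among the members themselves, the highest r were 0.88 for GLUD1 with GOT1 and 0.87 for GLS2 with GPT2, and the lowest were -0.64 for GLUD2 with GLS2 and with GPT2.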
